A study of Mus musculus with 6 samples.

Results

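Among the mesenchymal cells of the lower abdominal muscle (LAM), 5224 cells carried transcripts of both Myoc and Hmcn2, and these cells, labelled Myoc Hmcn2 fibro-adipogenic progenitors, are described here across the genotypes of the study. A cell was counted when it held at least 1000 unique molecular identifiers (UMIs, each standing for 1 captured transcript), at most 10% mitochondrial UMIs, at least 2 UMIs of Myoc, at least 1 of Hmcn2 and at least 1 of Pdgfra, fewer than 3 of Mmp3 and none of Pecam1, and when fewer than 2 of the 3 genes Dmkn, Sbsn and Krtdap had a UMI. The 5224 cells were 8.21% of the 63647 barcodes of the series, 9.77% of the 53443 barcodes within the UMI and mitochondrial limits, and part of the 16183 cells that had Pdgfra and lacked Pecam1. Since these values chose the cells, the levels of the 8 genes of the rule are given as a description. They stayed in the fits across all genes, and nothing is read from their tests.

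Single cells of the LAM were profiled from 3 wild-type (WT) and 3 Aromhum (Arom) male mice on the FVB/N background at 9–10 weeks of age, 1 library for each mouse, with 1 WT mouse and 1 Arom littermate processed on each of 3 dates. Arom mice carry the human aromatase gene CYP19A1 with its own tissue-specific promoters, so the transgene is not limited to fibroblasts by its design, and their samples are labelled scrotal hernia against control for WT. The labels name no treatment. The muscle was digested with collagenase and dispase and passed through a 40 µm filter that holds back whole muscle fibers, so the data describe mononuclear cells. The comparison asks how these mesenchymal cells differ between the genotypes. Per the study, Arom males have more estradiol in the tissue, less androgen in the circulation, and fibrosis and atrophy of the LAM. The parts of these in any difference cannot be told apart here.

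Fibro-adipogenic progenitors are muscle-resident mesenchymal cells marked by Pdgfra. They lie between the fibers and along vessels, build extracellular matrix, secrete factors that muscle stem cells and fibers depend on, and can turn into matrix-producing fibroblasts or adipocytes. Myoc encodes myocilin, a secreted olfactomedin-domain glycoprotein known best from the trabecular meshwork of the eye, and Hmcn2 encodes hemicentin-2, a very large extracellular matrix protein with immunoglobulin repeats. Abca8a encodes a lipid transporter of the ABC family, Tppp3 a tubulin-binding protein used as a marker of tendon sheath progenitors, and Smoc2 a matricellular protein related to SPARC. Aromatase converts androgens to estrogens, which act on these cells through estrogen receptor alpha, encoded by Esr1.

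The sequences just upstream of the 2 genes that name the cells are shown because every cell described here was chosen for their transcripts. They come from the RefSeq promoter table for GRCm38.p6, which is the mm10 assembly, are written 5′ to 3′ on the + strand, and end at the base before the annotated start of the gene. Myoc lies on chromosome 1 at 162639150-162649694 and Hmcn2 on chromosome 2 at 31314255-31460738. The 250 bases before Myoc are chr1:162638900-162639149, with a TATA box (TATAAA) in capitals that starts 26 bases before the gene. The 173 bases before Hmcn2 are chr2:31314082-31314254, with an AP-1 motif (TGANTCA) in capitals.
Myoc: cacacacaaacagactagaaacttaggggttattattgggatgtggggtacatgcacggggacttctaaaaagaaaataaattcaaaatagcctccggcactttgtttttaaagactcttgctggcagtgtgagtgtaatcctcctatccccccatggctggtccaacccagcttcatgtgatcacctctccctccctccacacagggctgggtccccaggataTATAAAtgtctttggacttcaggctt
Hmcn2: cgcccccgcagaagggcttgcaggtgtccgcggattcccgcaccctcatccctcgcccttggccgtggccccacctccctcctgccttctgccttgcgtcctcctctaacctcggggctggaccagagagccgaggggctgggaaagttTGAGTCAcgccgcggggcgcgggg
TATAAA was found on either strand in 12.4% and TGANTCA in 6.75% of the 32851 promoter windows of the table, each read over its 250 upstream bases. The estrogen response element, which is the half-site GGTCA followed after 3 bases by its reverse complement, was found in 0.0639% of the windows and in neither of the windows of Myoc and Hmcn2. No binding was measured in these libraries, so the letters are a description of the windows only.

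The libraries held 64958237 to 111826460 UMIs in all, and the Myoc+ Hmcn2+ cells 7331 to 12287.5 UMIs per cell (medians per mouse), 2291 to 3099.5 genes and 2.83% to 3.93% mitochondrial UMIs. CYP19A1 transcripts matched the labels in these cells, with 68, 38 and 126 UMIs in the 3 Arom mice and none in the 3 WT mice, where 3 UMIs would have been 0.299, 0.244 and 0.428 CPM (UMIs of a gene scaled to a common library total). Barcodes with the same sequence in more than 1 library made up 1.48% of the series and 72 of the 5224 cells (1.38%). Scrublet marked 44 of these cells as doublets, all in Arom libraries, and marked no barcode in any WT library at its own threshold. Why it marked none there was not tested.

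The genes used to name the cells were higher in them than in the 5874 other Pdgfra+ cells under the same exclusions and than in endothelial cells in each of the 6 mice. Myoc stood at 2444, 2726 and 2363 CPM in WT and 1269.6, 1342 and 1475 CPM in Arom cells. In CPM the lowest Myoc level of a WT mouse was above the highest of an Arom mouse, and the median cell held 17, 22 and 20 Myoc UMIs in WT and 11, 8 and 15 in Arom mice. Hmcn2 gave 509, 686 and 651 CPM in WT and 595, 771 and 836 CPM in Arom cells, ranges that overlap. The naming genes are not particular to these cells among all fibroblasts. In Mmp3-high fibroblasts Smoc2 was at 636, 999 and 1016 CPM in WT and 412, 419 and 1024 CPM in Arom mice, higher than in Myoc+ Hmcn2+ cells in 3 of the 6 mice, and Myoc reached 2834 CPM in WT replicate 2. In Dmkn fibroblasts Tppp3 reached 930 CPM in WT replicate 2, against 633 CPM in the Myoc+ Hmcn2+ cells of that mouse. Because cells with 0 or 1 Myoc UMI were left out in both genotypes, these levels describe the cells that passed.

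Of the 3 markers that the rule did not use, none passed the test between genotypes. Abca8a was at 359, 470.3 and 399 CPM in WT and 309, 387 and 412 CPM in Arom cells (log2 fold change -0.17 ± 0.13 SE, edgeR adjusted p = 0.481). Smoc2 was at 642, 764 and 722 CPM in WT and 700.5, 657 and 839.9 CPM in Arom cells (log2 fold change 0.02 ± 0.12 SE, edgeR adjusted p = 0.93). Tppp3 was at 495, 633 and 845 CPM in WT and 557, 498 and 1016 CPM in Arom cells (log2 fold change 0.05 ± 0.27 SE, edgeR adjusted p = 0.937). For all 3 the genotypes overlapped, and the sign of the Tppp3 and Smoc2 values turned under other settings. With every cell thinned to 3000 UMIs, Abca8a was seen in 62.3% of the Myoc+ Hmcn2+ cells of WT and 61.5% of those of Arom mice, against 1.86% and 1.28% of endothelial cells, which should lack it, and without thinning in 86.8% and 86.7% against 4.92% and 3.38%.

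**Figure D1:**
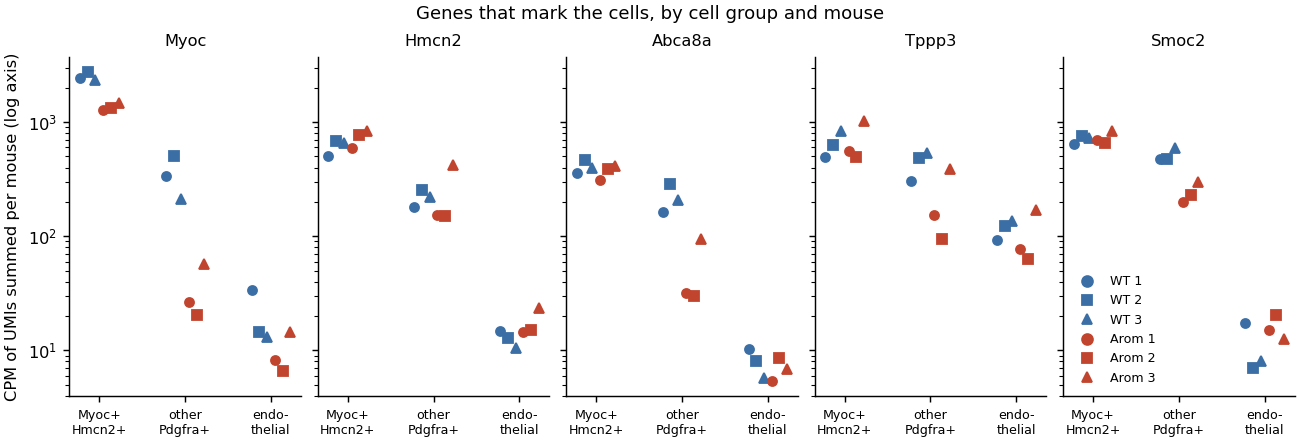
Level of the 5 naming genes in Myoc+ Hmcn2+ cells, other Pdgfra+ cells and endothelial cells, as CPM of the UMIs summed per mouse on a log axis; blue points are the 3 WT and red points the 3 Arom mice. In Myoc+ Hmcn2+ cells Abca8a stayed between 309 and 470 CPM in both genotypes, while in other Pdgfra+ cells it ran from 161 to 290 CPM in WT and from 30.2 to 95.1 CPM in Arom mice.

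The label fibro-adipogenic progenitor was checked against general markers of these cells, listed with earlier results of the data known. The 20 listed genes, 1 of which is a gene of the rule, summed to 78093 to 81247 CPM in WT and 62363 to 72125 CPM in Arom cells, against 2947 to 4209 CPM and 3744 to 5166 CPM in endothelial cells. They did not set the cells apart from the other Pdgfra+ cells, where 5 of the 19 tested genes were lower and 5 higher in all 6 mice (median log2 ratio 0.05). Ly6a (Sca-1) was at 1664, 1480.0 and 1457 CPM in WT and 2669, 1961 and 1618 CPM in Arom cells and Cd34 at 565, 651 and 601 CPM in WT and 781, 777 and 824 CPM in Arom cells. These 2 genes are not limited to mesenchyme. In the means over the 6 mice, 91.5% of endothelial cells held Ly6a (Myoc+ Hmcn2+ cells 97.3%) and 73.5% held Cd34 (95.8%). The collagen-binding proteoglycan gene Dcn reached 32419.9, 27347 and 27078 CPM in WT and 19287, 18753 and 21009.5 CPM in Arom cells, and these ranges do not overlap (log2 fold change -0.58 ± 0.15 SE, edgeR adjusted p = 0.068). Dpp4, a marker of adventitial, or universal, fibroblast progenitors, was present in 21.1% ± 2.79 (SD, n = 3) of WT and 24.7% ± 4.58 (SD, n = 3) of Arom cells, against 0.839% and 2.25% of endothelial cells, at median depths of 9986 and 7183 UMIs. Other Pdgfra+ cells, at a median of 11834 UMIs, held it in 25.1% in WT and 18.7% in Arom mice. The 8 endothelial markers summed to 52.5–62.2 CPM in WT and 34.5–45.8 CPM in Arom cells, against 4923 to 6680 CPM in endothelial cells.

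Beside the naming genes, genes that stood high over the other Pdgfra+ cells, at a mean of at least 50 CPM in the Myoc+ Hmcn2+ cells, were the same kind of description, since the cells were chosen in that contrast. The proprotein convertase Pcsk6 was 2.27 ± 0.78 log2 units above the other cells, averaged over the mice (SD, n = 6), the lipid transporter Abca8b 2.14 ± 1.27, the prostaglandin-degrading enzyme Hpgd 1.67 ± 0.71, the retinaldehyde dehydrogenase Aldh1a3 1.51 ± 0.96 and the actin-severing gelsolin Gsn 1.503 ± 1.05, each in 6 of 6 mice. Bmp4, a growth factor, stood 1.29 ± 0.61 and the basement membrane gene Nid2 1.32 ± 0.74 above the other cells. Abca8b and Abca8a are neighbours on chromosome 11, at 109932206-109996274 and 110025634-110097580, beside Abca9 and Abca6. At the low end were the secreted protease inhibitor Slpi (-3.15 ± 1.25), the natriuretic peptide gene Nppc (-2.44 ± 1.11), the receptor-modifying protein Ramp3 (-2.12 ± 1.45) and the neuropeptide precursor Pnoc (-2.03 ± 1.38). Of the 11693 genes tested, 10.0% were higher and 8.65% lower than in the other cells in all 6 mice. A further list holds markers that the study gave for its own cluster of these fibroblasts, chosen on these samples and therefore no independent evidence. The 33 genes used are a shortened copy of that list, 2 of them genes of the rule. Among its 31 tested genes, 21 were higher and 1 was lower in all 6 mice.

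At the edges of the rule, the 289 cells with exactly 2 Myoc UMIs had 291 CPM of Abca8a and 2636 CPM of Pnoc when pooled, the 485 otherwise matching cells with 1 Myoc UMI had 176 and 4354 CPM, and the 3081 with none had 59.8 and 7409 CPM. Nppc was at 373, 644 and 1371 CPM in these groups in the same order, and at 92.6 CPM in all Myoc+ Hmcn2+ cells pooled. These pooled values mix the genotypes in unequal parts. Of the cells with 2 Myoc UMIs, 39, 31 and 24 came from WT and 54, 71 and 70 from Arom mice, and of those with none 326, 123 and 135 came from WT and 880, 1104 and 513 from Arom mice. Abca8a in the other Pdgfra+ cells was at 161, 289.9 and 208 CPM in WT and 31.9, 30.2 and 95.1 CPM in Arom mice, and the part of this mix in the pooled values was not tested. The 444 cells with 1 Hmcn2 UMI and the 449 with none had 258 and 261 CPM of Abca8a. The cells on either side of the Mmp3 limit, 133 with 2 and 84 with 3 Mmp3 UMIs, had 379 and 352 CPM of Abca8a. With 1 of the 3 Dmkn genes seen, 1113 cells had 53.2 CPM of Dpp4, and with 2 seen, which the rule leaves out, 291 cells had 139 CPM. These values are given without a test.

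Myoc+ Hmcn2+ cells made up a smaller part of the Pdgfra+ mesenchyme in Arom than in WT mice on average, but the mice of each genotype differed widely. Of the Pdgfra+ Pecam1- cells they were 44.1%, 67.5% and 59.9% in WT and 18.6%, 13.1% and 45.6% in Arom mice. Arom replicate 3 stood apart from the other two and above WT replicate 1, so the genotypes overlap. The means were 57.2% ± 11.95 and 25.8% ± 17.4 (SD, n = 3 each), a difference of -31.4 percentage points (2-sided exact permutation test, p = 0.2, where 3 against 3 mice cannot go below 0.1). Without Arom replicate 3 the difference was -41.3 points (exact permutation test, p = 0.1, the smallest p that 3 against 2 mice allow). Under the study's limits on genes and mitochondrial UMIs it was -18.4 points (exact permutation test, p = 0.2).

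As a share of all barcodes within the limits, the cells were 11.6%, 15.7% and 9.00% in WT and 6.47%, 5.41% and 14.1% in Arom mice. The means were 12.1% ± 3.4 and 8.68% ± 4.8 (SD, n = 3 each), and the difference was -3.42 points (exact permutation test, p = 0.4), with genotypes that overlap. In numbers, 988, 1160 and 609 cells came from the WT and 692, 659 and 1116 from the Arom mice. The other Pdgfra+ cells under the same exclusions numbered 818, 324 and 296 in WT and 1558, 2087 and 791 in Arom mice. Shares of captured cells do not separate a loss of these cells from a gain of others. Since the rule rests on Myoc, a cell whose Myoc transcripts fell below 2 UMIs also left the count, and this cannot be told apart from fewer cells.

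**Figure D2:**
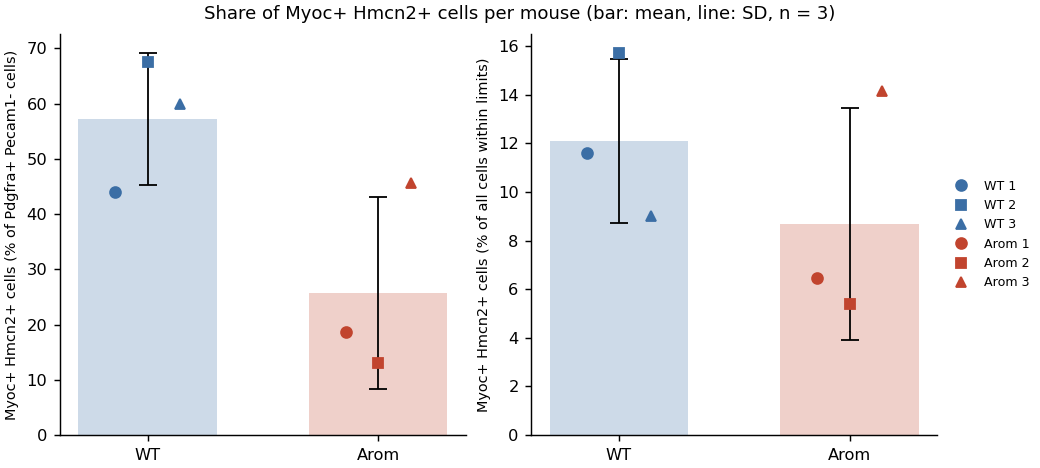
Myoc+ Hmcn2+ cells per mouse as a percentage of Pdgfra+ Pecam1- cells (left) and of all barcodes within the limits (right); bars are means, lines SD, points single mice. On the left Arom replicate 3 (45.6%) lies above WT replicate 1 (44.1%), while the other 2 Arom mice lie at 18.6% and 13.1%.

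Within the Myoc+ Hmcn2+ cells, Arom mice had higher levels of some matrix remodelling genes such as Timp1 and Tnc and of estrogen-responsive genes such as Pgr and Nppc. The level of the acute-phase gene Saa3 was also higher, though in Arom replicate 3 it came from few cells. Arom mice had lower levels of some tendon-associated genes such as Comp and Fmod. Thbs4 of the same list rose, the summed list overlapped between genotypes, and Comp passed in 2 of the 6 fits with a mouse left out. The immediate early gene Fos was lower too, as were muscle fiber transcripts, which endothelial cells of the same libraries also held. Of 11693 genes tested on UMIs summed per mouse, 525 passed an adjusted p of 0.05 in edgeR's quasi-likelihood test (4.49%), with 240 higher (2.05%) and 285 lower (2.44%) in Arom mice. Genes of the rule, Myoc included, are counted neither among the 11693 nor among the 525, and nothing is read from them. The WT and Arom values did not overlap for any of the 525, as they did not for 29.0% of all genes tested. The count rested on single mice, and with 1 mouse left out 299 (WT replicate 1), 102 (WT replicate 2), 103 (WT replicate 3), 101 (Arom replicate 1), 80 (Arom replicate 2) or 938 (Arom replicate 3) genes passed. Under the upper limits of 2500 genes and 5% mitochondrial UMIs that the study used, 800 WT and 778 Arom cells remained and 21 genes passed.

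Among the 67 called genes that the naming rule picked, 14 passed in each of the 6 fits that left out 1 mouse. These were Timp1, Tnc, Spon1, Saa3, Aldh1a2, Erfe, Nppc, Cd55, Fbn1, Col18a1 and Adora2b, which rose, and Penk, Fos and Ckm, which fell. Under the study's cell limits, which keep 800 WT and 778 Arom cells, Aldh1a2 was the only one of the 14 that passed. Saa3 and Erfe were not among the genes tested there, and the adjusted p of the others in edgeR ranged from 0.0522 (Fos) to 0.831 (Ckm, log2 fold change -0.38). After thinning to 3000 UMIs, Nppc, Col18a1 and Ckm (log2 fold change -0.66, edgeR adjusted p = 0.623) did not pass, and Saa3 and Erfe were again not tested. Of all 67 genes, 5 passed under the study's limits, namely Slpi, Aldh1a2, Bdnf, C4b and Col5a1, and 21 after thinning. Without WT replicate 1, 2 or 3, 38, 26 and 20 of the 67 passed, and without Arom replicate 1, 2 or 3, 20, 16 and 62. In 321 of the 525 called genes (61.1%) Arom replicate 3 was the Arom mouse nearest to WT, against 76 for replicate 1 and 128 for replicate 2. Other Pdgfra+ cells of the same mice called 21.0% of 12485 genes between genotypes, and 310 of the 525 genes were also called there in the same direction and 9 in the opposite one.

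The counts given for gene lists stand beside the 2.05% of all 11693 genes tested that rose and the 2.44% that fell. All lists were chosen with earlier results of these data known, so no count is independent support. The study itself had named Timp1, Spon1 and Postn as higher in Arom fibroblasts of these samples. Of the matrix remodelling genes, 3 were among these 14. Timp1, an inhibitor of matrix metalloproteinases, stood at 136, 118 and 103 CPM in WT and 768, 598 and 337 CPM in Arom cells (log2 fold change 2.23 ± 0.28 SE, edgeR adjusted p = 0.00837). Tnc, the matricellular protein tenascin-C, stood at 23.9, 34.3 and 29.5 CPM in WT and 185, 114 and 109 CPM in Arom cells (log2 fold change 2.20 ± 0.23 SE, edgeR adjusted p = 0.00536), and Spon1, the matrix protein spondin-1, at 68.2, 41.9 and 56.2 CPM in WT and 253, 212 and 194 CPM in Arom cells (log2 fold change 1.96 ± 0.20 SE, edgeR adjusted p = 0.00536). In all 3 genes the lowest Arom mouse was above the highest WT mouse, and Arom replicate 3 was the lowest of the Arom mice. Timp1 and Tnc were also higher in other Pdgfra+ cells of Arom mice. In them Timp1 was at 163, 242 and 175 CPM in WT and 1667, 1001 and 472 CPM in Arom mice. Tnc was at 16.7, 42.2 and 30.5 CPM in WT and 264, 136 and 137 CPM in Arom mice. Their genotype effect did not pass as different between the cell groups (edgeR adjusted p = 0.977 and 0.298). Endothelial cells held Timp1 at 43.8, 25.9 and 26.7 CPM in WT and 110, 81.6 and 68.6 CPM in Arom mice. Of the 27 tested genes in the remodelling list, 9 rose, namely Timp1, Tnc, Spon1, Spon2, Postn, Fn1, Loxl2, Inhba and Cilp, and 1 fell, the cartilage and tendon protein Comp. The median log2 fold change of the list was 0.51, against 0.00 over all genes tested, and between 3 and 13 of its genes were called higher when 1 mouse was left out. Postn, the matricellular periostin, was at 144, 283 and 135 CPM in WT and 545, 493 and 423 CPM in Arom cells (log2 fold change 1.36 ± 0.26 SE, edgeR adjusted p = 0.0264).

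Of the fibrillar collagen genes, those of collagen V passed. Of 26 tested fibrillar matrix genes, Col5a1, Col5a2 and Col5a3, which encode chains of the collagen that starts fibril assembly, rose together with the microfibril genes Fbn1 and Mfap5, and the fibulin gene Fbln1 fell. Mfap5 passed in 0 of the 6 fits with a mouse left out, Col5a2 and Fbln1 in 1 and Col5a3 in 2, and none of the 4 passed after thinning or under the study's cell limits. Of the 19 tested general markers of fibro-adipogenic progenitors, 2 were called between genotypes, Mfap5 and Tnc, which rose. Fbn1, which encodes fibrillin-1, rose from 538, 705 and 633 CPM in WT to 1257, 1169 and 1282 CPM in Arom cells (log2 fold change 0.96 ± 0.12 SE, edgeR adjusted p = 0.00837). Col5a1 rose from 229, 310.2 and 324 to 517, 456 and 490.3 CPM (log2 fold change 0.74 ± 0.13 SE, edgeR adjusted p = 0.0229). Col3a1 was at 3698, 5875 and 5491 CPM in WT and 10231, 8036 and 8243 CPM in Arom cells, without overlap, and missed the threshold (log2 fold change 0.80 ± 0.19 SE, edgeR adjusted p = 0.0507). Col1a1 was at 2354, 2740.3 and 2873 CPM in WT and 3958, 2804 and 3468 CPM in Arom cells, with overlap (log2 fold change 0.34 ± 0.16 SE, edgeR adjusted p = 0.235). Between 1 and 5 genes of the list were called higher when 1 mouse was left out.

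Basement membrane genes, which include the surroundings in which Smoc2 and Hmcn2 products act, showed 2 rises among 24 tested genes, beside the 2.05% of all genes tested that rose. Hspg2, the heparan sulfate proteoglycan perlecan, was at 277, 342 and 367 CPM in WT and 509, 499 and 561 CPM in Arom cells (log2 fold change 0.65 ± 0.12 SE, edgeR adjusted p = 0.0226). Col18a1, the source of endostatin, was at 35.1, 44.3 and 44.4 CPM in WT and 71.1, 66.2 and 71.5 CPM in Arom cells (log2 fold change 0.74 ± 0.10 SE, edgeR adjusted p = 0.0116) and passed with each mouse left out, whereas Hspg2 passed in 1 of the 6 fits. After thinning it was Hspg2 that passed (log2 fold change 0.59, edgeR adjusted p = 0.0307) and Col18a1 that did not (0.44, edgeR adjusted p = 0.3). Nid1 was at 731, 873 and 807 CPM in WT and 902, 924 and 1023 CPM in Arom cells and did not pass (log2 fold change 0.22 ± 0.10 SE, edgeR adjusted p = 0.255). The median log2 fold change of the list was 0.15.

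Genes of the adventitial, or universal, fibroblast progenitor rose in 4 of 11 tested cases and fell in none. Pi16, a secreted peptidase inhibitor, was at 556, 554 and 529.5 CPM in WT and 1295, 1046 and 828 CPM in Arom cells (log2 fold change 0.93 ± 0.17 SE, edgeR adjusted p = 0.0224), but it passed in only 1 of the 6 fits with a mouse left out. Cd55, a cell-surface brake on complement, was at 157, 159 and 134 CPM in WT and 327, 313 and 305 CPM in Arom cells (log2 fold change 1.04 ± 0.11 SE, edgeR adjusted p = 0.00536) and passed in all 6. Fbn1 and Fn1 were the other 2, and Fn1 passed in 1 of the 6 fits. With 1 mouse left out between 2 and 6 genes of the list were called higher, under the study's cell limits 0 and after thinning 3. Dpp4 itself did not pass, at 40.4, 45.2 and 27.0 CPM in WT and 42.7, 47.4 and 49.9 CPM in Arom cells (log2 fold change 0.28 ± 0.17 SE, edgeR adjusted p = 0.367).

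Of 16 tested estrogen-responsive genes of these fibroblasts, a list chosen on these samples and no independent evidence of direction, 6 rose and none fell (median log2 fold change 1.08), while the receptor gene did not pass. Summed, the list was at 9423.5, 2540 and 3837 CPM in WT and 12092, 8776 and 6703 CPM in Arom cells, ranges that overlap. Esr1 was at 53.4, 43.6 and 47.3 CPM in WT and 46.2, 59.8 and 42.1 CPM in Arom cells (log2 fold change 0.00 ± 0.15 SE, edgeR adjusted p = 0.999). Pgr, the progesterone receptor gene, was at 2.69, 0.568 and 0.143 CPM in WT and 20.4, 39.7 and 7.22 CPM in Arom cells (log2 fold change 4.14 ± 0.80 SE, edgeR adjusted p = 0.0278). It passed in 2 of the 6 fits with a mouse left out, with an adjusted p of up to 0.115 in edgeR. Greb1, a cofactor of estrogen receptor alpha, was at 19.5, 12.4 and 19.3 CPM in WT and 43.1, 60.7 and 27.5 CPM in Arom cells (log2 fold change 1.32 ± 0.29 SE, edgeR adjusted p = 0.0424), and passed in 1 of the 6.

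Nppc, which encodes C-type natriuretic peptide, was the gene of that list that passed with each mouse left out, and was at 50.2, 26.3 and 30.1 CPM in WT and 127, 218 and 144 CPM in Arom cells (log2 fold change 2.16 ± 0.28 SE, edgeR adjusted p = 0.00871). Ramp3, which alters the ligand choice of calcitonin-like receptors, was at 4.29, 3.90 and 4.56 CPM in WT and 43.4, 60.4 and 15.3 CPM in Arom cells (log2 fold change 3.17 ± 0.47 SE, edgeR adjusted p = 0.0133), and Inhba, a subunit of activin A, at 67.6, 52.8 and 46.5 CPM in WT and 241, 222 and 125 CPM in Arom cells (log2 fold change 1.79 ± 0.26 SE, edgeR adjusted p = 0.0121). For Nppc the genotypes overlapped after thinning in cells with 2, with 3 to 4 and with 10 or more Myoc UMIs. They did not overlap in cells with 5 to 9. It did not pass after thinning to 3000 UMIs (log2 fold change 1.68, edgeR adjusted p = 0.0668) or under the study's cell limits (1.25, edgeR adjusted p = 0.206). Inhba had a log2 fold change of 0.29 under the study's cell limits and did not pass there (edgeR adjusted p = 0.69), and of 1.01 after thinning, where it passed (edgeR adjusted p = 0.0204). All 6 called genes of the list were also higher in the other Pdgfra+ cells of Arom mice, where Nppc reached 1974, 1797 and 952 CPM and Ramp3 496, 497 and 207 CPM. Markers of Esr1-high fibroblasts, also a list chosen on these samples, were present at varying levels. Of its 8 genes, 3 rose in the Myoc+ Hmcn2+ cells (Nppc, Ramp3 and Erfe) and their summed level was 616 to 7810 CPM in WT and 3948 to 7907 CPM in Arom cells. The part that transcripts of such cells play in these rises was not tested. Without Arom replicate 3, 10 of the 16 genes passed, and without other single mice as few as 1. Inhba passed in 3 and Ramp3 in 2 of the 6 fits.

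The largest rises by fold were in genes of low level in WT cells. Slpi, a secreted inhibitor of serine proteases, was at 2.59, 2.19 and 3.42 CPM in WT and 19.2, 119 and 42.5 CPM in Arom cells (log2 fold change 4.43 ± 0.66 SE, edgeR adjusted p = 0.0133), while endothelial cells held 51.9, 57.5 and 63.1 CPM in WT and 210.1, 615 and 212 CPM in Arom mice. Ahsg, which encodes the mineral-binding plasma protein fetuin-A, was at 3.29, 1.14 and 2.28 CPM in WT and 71.3, 37.6 and 12.8 CPM in Arom cells (log2 fold change 4.17 ± 0.68 SE, edgeR adjusted p = 0.0192), with at most 0.536 CPM in endothelial cells of any mouse. Ereg, an epidermal growth factor receptor ligand, was at 4.29, 3.00 and 1.43 CPM in WT and 44.1, 38.4 and 10.3 CPM in Arom cells (log2 fold change 3.29 ± 0.58 SE, edgeR adjusted p = 0.0215). Aldh1a2, which makes retinoic acid, rose from 11.6, 10.3 and 20.1 CPM in WT to 71.5, 79.2 and 45.6 CPM in Arom cells (log2 fold change 2.22 ± 0.28 SE, edgeR adjusted p = 0.00837). Slc6a2, the noradrenaline transporter, was at 6.89, 5.12 and 4.85 CPM in WT and 56.1, 31.4 and 13.97 CPM in Arom cells (log2 fold change 2.54 ± 0.48 SE, edgeR adjusted p = 0.0262), and Erfe, a hormone of iron handling, at 7.09, 5.85 and 3.71 CPM in WT and 26.5, 39.3 and 32.2 CPM in Arom cells (log2 fold change 2.49 ± 0.22 SE, edgeR adjusted p = 0.00304). Of these, Aldh1a2 and Erfe passed with each mouse left out, whereas Slpi passed in 4, Ahsg in 3, Ereg in 2 and Slc6a2 in 1 of the 6 fits.

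**Figure D3:**
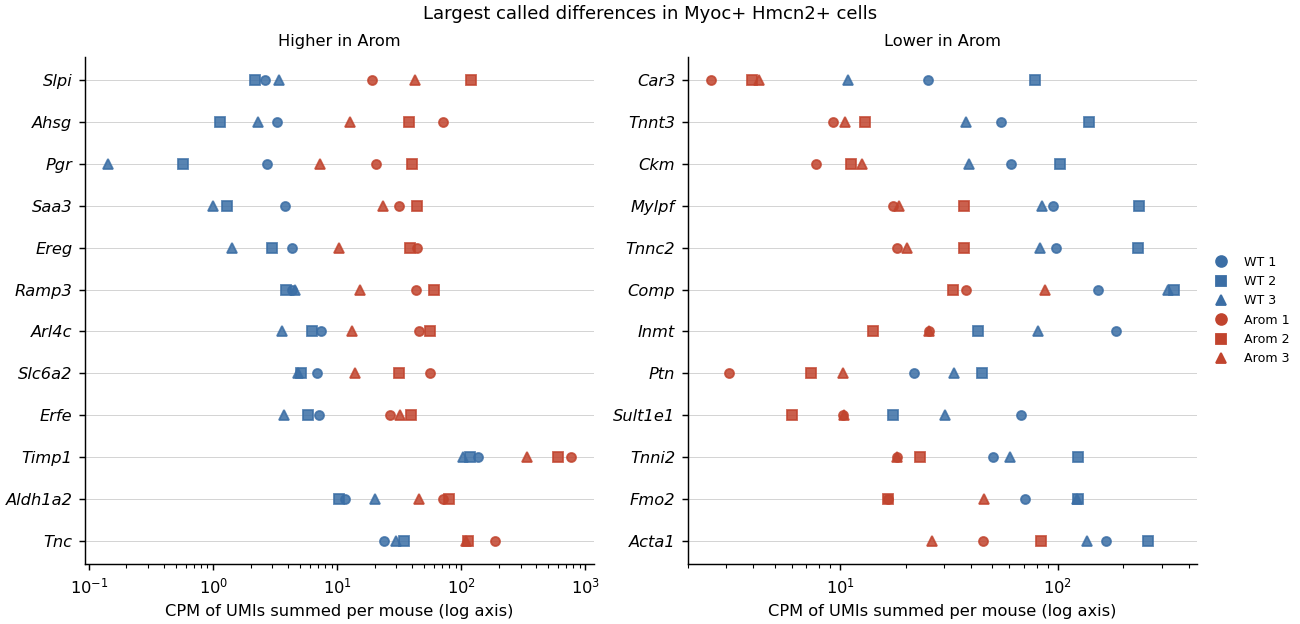
CPM per mouse in Myoc+ Hmcn2+ cells on a log axis for the 12 largest called rises (left) and falls (right) of genes with a mean of at least 20 CPM in the higher genotype; blue points are WT and red points Arom mice. No gene has overlapping genotypes, and Timp1 is the rise with the highest level, at 103 to 136 CPM in WT and 337 to 768 CPM in Arom mice.

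Of 30 tested chemokine, cytokine, acute-phase and complement genes, 8 rose and none fell (median log2 fold change 0.65). Summed, the list was at 18195, 16207 and 17176.5 CPM in WT and 28061, 21367 and 15242 CPM in Arom cells. These ranges overlap, and Arom replicate 3 lay below each WT mouse. Saa3, an acute-phase apolipoprotein, was at 3.79, 1.30 and 0.998 CPM in WT and 31.7, 44.2 and 23.2 CPM in Arom cells (log2 fold change 3.93 ± 0.41 SE, edgeR adjusted p = 0.00564) and passed with each mouse left out. A Saa3 UMI was held by 1.32%, 1.38% and 1.15% of WT cells. The share was 14.02% and 10.02% in Arom replicates 1 and 2, but 1.16% in replicate 3, within the WT range. The 344 Saa3 UMIs of Arom replicate 3 thus came from few cells, and no wider presence was seen in that mouse. In endothelial cells of the Arom mice Saa3 was at 209, 183 and 1.35 CPM, so replicates 1 and 2 had more of it outside these cells and replicate 3 less. C4b, a complement component, was at 74.7, 28.0 and 40.9 CPM in WT and 283, 214 and 119.8 CPM in Arom cells (log2 fold change 2.07 ± 0.41 SE, edgeR adjusted p = 0.0293), and Il33, an alarmin that acts on regulatory T cells, at 65.2, 68.4 and 60.6 CPM in WT and 181, 156 and 91.8 CPM in Arom cells (log2 fold change 1.12 ± 0.22 SE, edgeR adjusted p = 0.0314). The chemokine genes Ccl8, Cxcl9 and Cxcl14, Lbp and Vcam1 were the others. The chemokine gene Ccl2 did not pass, at 4929.8, 4326 and 4660.4 CPM in WT and 8068, 6291 and 3484 CPM in Arom cells (log2 fold change 0.34 ± 0.27 SE, edgeR adjusted p = 0.503). Of the 8 rises, C4b, Il33, Cxcl14 and Ccl8 are also the called genes among 8 markers of Mmp3-high fibroblasts, a list chosen on these samples. Those 8 markers summed to 1320, 1256 and 1185 CPM in WT and 3692, 2672 and 1968 CPM in Arom cells, without overlap, and between 0 and 6 of them were called higher with 1 mouse left out. The part that transcripts of such cells play in these rises was not tested. Leukocyte markers summed to 86.4–130 CPM in WT and 44.3–261 CPM in Arom cells. With 1 mouse left out, between 1 and 13 of the 30 genes passed.

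Tendon-associated genes fell in part, and those named here were chosen after their values were seen. Of 8 tenocyte markers, Tnmd, Fmod, Comp and Wif1 fell and Thbs4 rose (median log2 fold change -1.15). Among 6 markers of tenocyte progenitors, a list chosen on these samples, Tgfbi and Itgbl1 fell, and between 0 and 4 of the 6 were called lower with 1 mouse left out. Tgfbi, a secreted protein that binds integrins and collagen, went from 444, 475 and 464 CPM in WT to 140.1, 127 and 261 CPM in Arom cells (log2 fold change -1.40 ± 0.24 SE, edgeR adjusted p = 0.0208). Fmod, the collagen-binding fibromodulin, went from 198, 218 and 214 to 59.1, 75.4 and 109 CPM (log2 fold change -1.39 ± 0.19 SE, edgeR adjusted p = 0.01), and Tnmd, the membrane protein tenomodulin, from 101, 132 and 102 to 34.1, 43.3 and 60.1 CPM (log2 fold change -1.30 ± 0.19 SE, edgeR adjusted p = 0.0125). Comp was at 153, 342 and 320.2 CPM in WT and 37.9, 33.1 and 87.5 CPM in Arom cells (log2 fold change -2.35 ± 0.40 SE, edgeR adjusted p = 0.0206). Thbs4, a thrombospondin of tendon and muscle attachment, moved the other way, from 518, 709 and 498 to 1291, 1102 and 1138 CPM (log2 fold change 1.02 ± 0.15 SE, edgeR adjusted p = 0.0125). The 8 tenocyte markers summed to 1007–1441 CPM in WT and 1282–1436 CPM in Arom cells, ranges that overlap. Scx, which encodes the tendon transcription factor, was seen in 3.08% ± 0.73 (SD, n = 3) of WT and 1.22% ± 0.59 (SD, n = 3) of Arom cells, against 1.09% and 0.89% of endothelial cells. Thinned to 3000 UMIs, it was seen in 1.11% of WT and 0.391% of Arom cells, against 0.383% and 0.312% of endothelial cells, so the WT share was above the endothelial one and the Arom share near it. Without Arom replicate 3, 5 of the 8 markers passed as lower, and without another single mouse as few as 0.

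Penk, which encodes proenkephalin, fell from 311, 324 and 348 CPM in WT to 139.6, 139 and 166 CPM in Arom cells (log2 fold change -1.17 ± 0.10 SE, edgeR adjusted p = 0.00304) and passed with each mouse left out. Gdf10, a factor of the bone morphogenetic protein family through which these cells act on muscle fibers, went from 18.8, 38.2 and 38.8 to 8.87, 4.70 and 11.3 CPM (log2 fold change -1.88 ± 0.32 SE, edgeR adjusted p = 0.0208) and passed in 2 of the 6 fits with a mouse left out. Neither gene overlapped between genotypes.

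Among 21 tested factors through which such cells act on muscle and nerve, Fstl1, Il33 and Bdnf rose and Gdf10 and Bmp4 fell. Bdnf, a neurotrophin, was at 4.09, 1.54 and 0.856 CPM in WT and 17.7, 26.1 and 13.6 CPM in Arom cells (log2 fold change 3.04 ± 0.44 SE, edgeR adjusted p = 0.0121). Bmp4 was at 117, 127 and 106 CPM in WT and 67.6, 64.1 and 83.4 CPM in Arom cells (log2 fold change -0.72 ± 0.12 SE, edgeR adjusted p = 0.0206), and Fstl1, a secreted follistatin-like glycoprotein, at 793, 1161 and 967 CPM in WT and 1651, 1607 and 1592 CPM in Arom cells (log2 fold change 0.71 ± 0.14 SE, edgeR adjusted p = 0.027). Igf1 was at 269, 286 and 253 CPM in WT and 623, 465 and 345 CPM in Arom cells, without overlap, and missed the threshold (log2 fold change 0.81 ± 0.20 SE, edgeR adjusted p = 0.0589). Of 22 factors that act on blood vessels, Vegfc alone passed and was lower (log2 fold change -0.99 ± 0.21 SE, edgeR adjusted p = 0.0369).

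Of the immediate early genes, which tissue dissociation also raises, 5 were lower in Arom cells. Fos went from 2056, 2145 and 2289 CPM in WT to 804, 855 and 1185 CPM in Arom cells (log2 fold change -1.22 ± 0.15 SE, edgeR adjusted p = 0.00837), and passed with each mouse left out. Of the 21 tested genes, Egr1, Zfp36, Dusp1 and Hspa1b fell with Fos, and Egr2 rose, though Egr2 passed in 0 of the 6 fits with a mouse left out and Egr1, Zfp36, Dusp1 and Hspa1b in 1 each (median log2 fold change -0.55). In endothelial cells of the same libraries Fos was at 2176, 2301 and 1957 CPM in WT and 1187, 1476 and 1639 CPM in Arom mice, lower in Arom as well, and the 21 genes summed to 30380 to 33448 CPM in WT and 21243 to 25623 CPM in Arom endothelial cells. The part of tissue handling in the difference was not tested.

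Transcripts of muscle fibers were among the largest falls by fold. Acta1, which encodes skeletal muscle actin, was at 166, 261 and 136 CPM in WT and 45.1, 83.7 and 26.6 CPM in Arom cells (log2 fold change -1.91 ± 0.38 SE, edgeR adjusted p = 0.0316), and Ckm, muscle creatine kinase, at 61.2, 102 and 38.9 CPM in WT and 7.79, 11.3 and 12.6 CPM in Arom cells (log2 fold change -2.69 ± 0.33 SE, edgeR adjusted p = 0.00837). Car3, Tnnt3, Mylpf, Tnnc2 and Tnni2, which encode carbonic anhydrase 3 and proteins of the fast contractile apparatus, were also among the 12 largest falls. Of the 8 muscle markers, 3 of the 6 tested passed, and they summed to 254–605 CPM in WT and 58.8–130 CPM in Arom cells. Endothelial cells held the same transcripts, at 150–828 CPM in WT and 156–232 CPM in Arom mice. Thinned to 3000 UMIs, Acta1 was seen in 7.77% of WT and 4.81% of Arom Myoc+ Hmcn2+ cells and in 14.5% and 5.96% of endothelial cells, which do not make it, and without thinning in 20.0% and 13.8% against 28.9% and 14.1%. Its share in Myoc+ Hmcn2+ cells was thus below that in endothelial cells in the mean of either genotype, and after thinning in each mouse. Without thinning it was above in Arom replicate 1 (13.4% against 11.5%) and level in Arom replicate 3 (20.3% against 20.2%). After thinning, Acta1 had a log2 fold change of -0.53 and an adjusted p of 0.638 in edgeR, and Ckm, Tnnt3, Mylpf, Tnnc2 and Tnni2 did not pass either.

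None of the 13 tested receptors and enzymes of steroid hormones passed (median log2 fold change -0.04), though 2 genes of the list were called higher without Arom replicate 3. Of 18 adipogenic and lipid-handling genes Apod alone fell (log2 fold change -0.84 ± 0.17 SE, edgeR adjusted p = 0.0295). Of 16 glucocorticoid-responsive genes Tsc22d3, Pdk4 and Cdkn1a fell, though Pdk4 passed in 0, Tsc22d3 in 1 and Cdkn1a in 2 of the 6 fits with a mouse left out, and Cebpd did not pass, at 2571, 2046 and 2433 CPM in WT and 1605, 1279 and 1934 CPM in Arom cells (log2 fold change -0.58 ± 0.17 SE, edgeR adjusted p = 0.0955). Of the 7 listed genes of the Abca family, Abca8a included, Abca6 alone fell (log2 fold change -0.78 ± 0.15 SE, edgeR adjusted p = 0.0263). Of the 31 tested markers of the cluster of these fibroblasts, Col5a3 and Pi16 rose and none fell (median log2 fold change 0.02). Of 8 tested relatives of the Smoc, hemicentin and olfactomedin families Olfml2b alone fell (log2 fold change -0.68 ± 0.12 SE, edgeR adjusted p = 0.0208). Of the 8 markers of Dmkn fibroblasts, a list chosen on these samples, Cd55 and Pla1a rose, and the 8 summed to 1069 to 1417 CPM in WT and 1497 to 1538 CPM in Arom cells, without overlap. None of the 7 tested leukocyte markers passed. Single markers of other cell types also passed, with Flt1, Mylk, Ngfr and Msln 1 each in the endothelial, mural, glial and mesothelial lists. Of the called genes given above with values, Bdnf passed in 4 of the 6 fits with a mouse left out, Postn, Col5a1, C4b, Comp, Acta1, Bmp4, Fstl1, Vegfc, Apod and Olfml2b in 2 each, and Hspg2, Il33 and Abca6 in 1 each.

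The genotype difference itself was then compared between Myoc+ Hmcn2+ and other Pdgfra+ cells of the same mice. The rule itself split these groups by Myoc and Hmcn2. The naming genes outside the rule passed this test, and their values are given as a description. Of 12509 genes, 1790 (14.3%) differed in edgeR at an adjusted p of 0.05, with 1179 (9.43%) higher and 611 (4.88%) lower in Myoc+ Hmcn2+ cells relative to the others. Genes of the rule are counted neither among the 12509 nor among the 1790, and nothing is read from them. Smoc2 differed by 1.26 ± 0.12 SE on the log2 scale, edgeR adjusted p = 5.43e-04, Tppp3 by 1.41 ± 0.20 SE on the log2 scale, edgeR adjusted p = 0.00267 and Abca8a by 2.20 ± 0.33 SE on the log2 scale, edgeR adjusted p = 0.00312. In other Pdgfra+ cells Smoc2 was at 473, 477 and 594 CPM in WT and 198, 231 and 299 CPM in Arom mice, and Abca8a at 161, 289.9 and 208 CPM in WT and 31.9, 30.2 and 95.1 CPM in Arom mice. Both fell in the other cells, without overlap between genotypes, and in the Myoc+ Hmcn2+ cells the genotypes overlapped. The rule keeps cells with Myoc in both genotypes, and Myoc was seen in 34.3% of the other cells in WT and 15.4% in Arom mice. These differences cannot be told apart from the effect of this split. The tests of Smoc2, Tppp3 and Abca8a are therefore no support for a trait of the Myoc+ Hmcn2+ cells.

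C7, a terminal complement component, was at 192, 99.0 and 157 CPM in WT and 72.1, 64.1 and 109.9 CPM in Arom Myoc+ Hmcn2+ cells and at 285, 130.2 and 212 CPM in WT and 19.2, 22.0 and 37.0 CPM in Arom mice in the other cells (difference 2.26 ± 0.12 SE on the log2 scale, edgeR adjusted p = 5.25e-05). Il6 was at 184, 226 and 248 CPM in WT and 264, 132 and 211 CPM in Arom cells against 329, 399.6 and 483 CPM in WT and 104, 70.1 and 82.3 CPM in Arom mice (difference 2.20 ± 0.13 SE on the log2 scale, edgeR adjusted p = 8.14e-05). Efemp1, the matrix protein fibulin-3, was at 144, 150.5 and 113 CPM in WT and 164, 173 and 171 CPM in Arom cells against 207, 215 and 156 CPM in WT and 45.7, 42.3 and 66.4 CPM in Arom mice (difference 2.37 ± 0.15 SE on the log2 scale, edgeR adjusted p = 9.32e-05). Il6 and Efemp1 fell in the other cells and did not pass in the Myoc+ Hmcn2+ cells. Adora2b, an adenosine receptor gene, moved in opposite directions, from 29.5, 31.3 and 31.5 to 72.0, 70.3 and 51.6 CPM in Myoc+ Hmcn2+ cells and from 27.7, 34.7 and 35.6 to 20.2, 20.3 and 15.7 CPM in the others (difference 1.97 ± 0.10 SE on the log2 scale, edgeR adjusted p = 5.25e-05). Il33 did so as well, with 168, 137 and 88.9 CPM in WT and 69.4, 67.7 and 48.4 CPM in Arom mice in the other cells (difference 2.28 ± 0.20 SE on the log2 scale, edgeR adjusted p = 2.87e-04).

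The negative differences included genes that rose in the other cells. Inhba rose in both groups, to 958, 837 and 360.0 CPM in the other cells of Arom mice, and rose more there (edgeR adjusted p of the difference 2.19e-04). Hes6, a transcriptional regulator of the HES family, was at 8.88, 9.18 and 9.56 CPM in WT and 18.0, 16.7 and 13.1 CPM in Arom Myoc+ Hmcn2+ cells and at 7.57, 8.11 and 8.82 CPM in WT and 87.5, 72.7 and 56.8 CPM in Arom mice in the others (difference -2.23 ± 0.13 SE on the log2 scale, edgeR adjusted p = 8.14e-05). The rise of Hes6 in Myoc+ Hmcn2+ cells passed in 1 of the 6 fits with a mouse left out, turned to a log2 fold change of -0.47 after thinning (edgeR adjusted p = 0.603) and was 0.17 under the study's cell limits (edgeR adjusted p = 0.91). Smoc1, the relative of Smoc2, was at 11.0, 2.76 and 9.84 CPM in WT and 14.6, 15.0 and 13.5 CPM in Arom cells against 17.8, 4.54 and 11.2 CPM in WT and 105, 114 and 117 CPM in Arom mice (difference -2.30 ± 0.16 SE on the log2 scale, edgeR adjusted p = 1.5e-04). Esr1, the receptor gene, was detected in more of the other cells in Arom mice. Thinned to 3000 UMIs, Esr1 was seen in 9.09% of them in WT and 32.1% in Arom mice, against 10.5% and 9.32% of the Myoc+ Hmcn2+ cells, and in 0.515% and 0.801% of endothelial cells, and without thinning in 20.3% and 61.5% against 25.6% and 23.2%, with 1.71% and 1.90% in endothelial cells. A change of cell mix and a change within cells cannot be told apart in the other Pdgfra+ cells. When every other Pdgfra+ cell entered the comparison, Mmp3-high and Dmkn cells included, 928 genes differed.

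**Figure D4:**
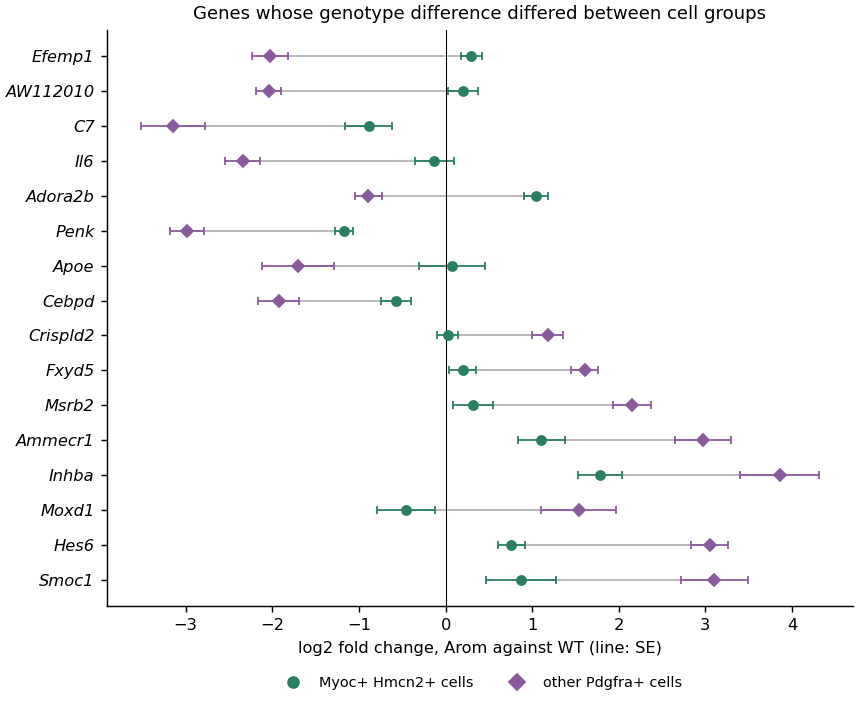
Log2 fold change of Arom against WT (points, with SE lines, from 3 mice per genotype) in Myoc+ Hmcn2+ cells (green) and other Pdgfra+ cells (purple) for the 8 most significant differences in each direction. Penk fell in both groups, by 1.17 and 2.98 on the log2 scale, while Adora2b was at 1.04 in the first and -0.89 in the second.

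Within the Myoc+ Hmcn2+ cells, the levels of several other genes moved with the level of Myoc. The cells were thinned to 3000 UMIs and those that still met the rule were split by their remaining Myoc UMIs into 309 cells with 2, 587 with 3 to 4, 851 with 5 to 9 and 735 with 10 or more. Gsn averaged 24366 ± 6354 CPM (SD, n = 6) in the first and 37411 ± 4801 CPM in the last group, and was higher in the last group in 6 of 6 mice. Timp1 averaged 352 ± 267 CPM in the first and 117 ± 55.7 CPM in the last group, with a lower level in the last group in 5 of 6 mice. Nppc was lower in the last group in 6 of 6 mice, but in the first group Arom replicate 2 was at 218 CPM against 29.4 to 40.0 CPM in the other 5 mice. Comp was higher in the last group in 6 of 6 mice, and its first-group level was 361 CPM in WT replicate 2 and 0 to 88.2 CPM in the other 5. Fmod averaged 160 ± 125 CPM in the first and 60.2 ± 42.4 CPM in the last group and was higher in the last group in 1 of 6 mice.

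The difference between genotypes held across the Myoc range for some of the called genes and not for others. In the cells with 10 or more Myoc UMIs Timp1 was at 81.6, 58.3 and 66.0 CPM in WT and 194, 142 and 158 CPM in Arom mice, and in the cells with 2 at 153, 55.6 and 137 CPM against 546, 690 and 528 CPM. Pi16 was at 704, 611 and 667 CPM in WT and 891, 776 and 1280 CPM in Arom cells with 10 or more Myoc UMIs. For Timp1 and Pi16 the genotypes did not overlap at either end. Nppc, in contrast, was at 9.32, 5.07 and 19.8 CPM in WT and 0, 16.4 and 8.93 CPM in Arom cells with 10 or more Myoc UMIs, with no rise. Inhba was at 76.9, 62.1 and 62.7 CPM in WT and 24.2, 131 and 134 CPM in Arom cells there, and Fos at 2219, 2096 and 2719 CPM in WT and 1139, 2175 and 1574 CPM. The genotypes overlapped for all 3 of these genes in that group. The Myoc groups were set by a gene of the rule, and these values are a description without a test.

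**Figure D5:**
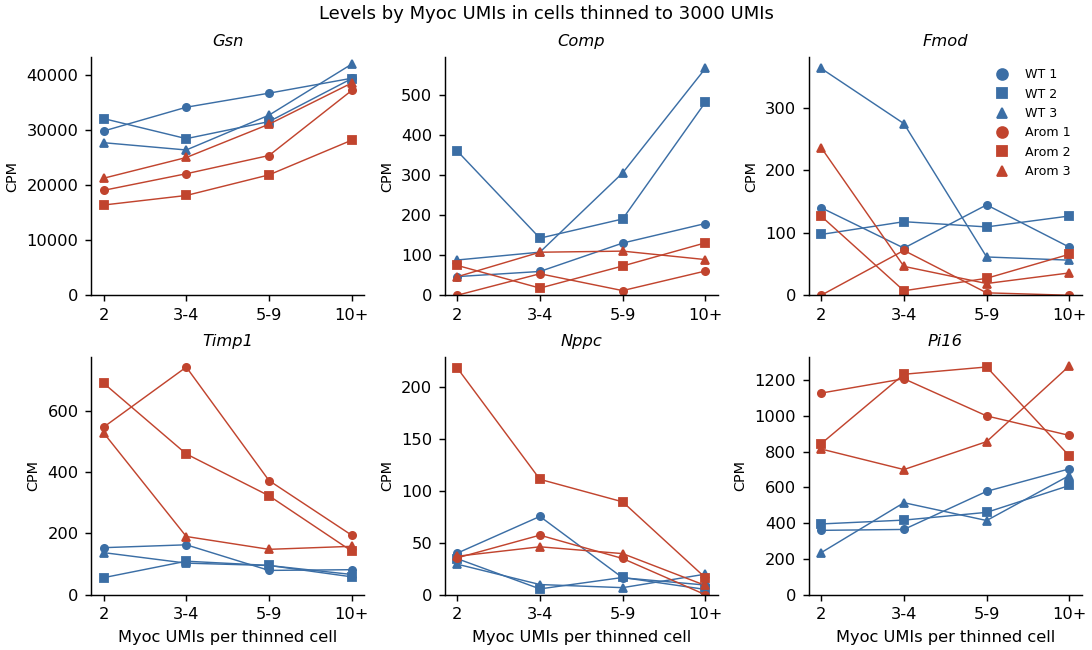
CPM of 6 genes in Myoc+ Hmcn2+ cells thinned to 3000 UMIs, by Myoc UMIs in the thinned cell (2, 3-4, 5-9, 10 or more); each line is 1 mouse, blue for WT and red for Arom. Gsn rises to a mean of 37411 CPM and Timp1 falls to a mean of 117 CPM in the cells with 10 or more Myoc UMIs.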

How the data were processed

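Single-cell RNA of the lower abdominal muscle was sequenced with 10x Genomics chemistry, 1 library for each of 3 WT and 3 Arom male mice. Per the study's methods and the submitters' processing notes, the authors used Cell Ranger 3.0.2 with the mm10 build and the added CYP19A1 sequence, and deposited raw UMI counts for 16494 genes in 63647 barcodes. Members and gene lists were chosen with earlier results of these data known, so no list is independent support.

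Counts of the chosen cells were summed per mouse. They were tested with edgeR 4.0.16 (R 4.3.3; TMM scaling, default filter on low counts, quasi-likelihood test, Benjamini-Hochberg adjusted p of 0.05) on the 6 mice. The difference of the genotype effect between cell groups was tested as an interaction with mouse as a block. DESeq2 1.42.0 was an alternative. Other Pdgfra+ cells met the same limits and exclusions but missed the Myoc minimum, the Hmcn2 minimum or both. Myoc was seen in 34.3% of them in WT and 15.4% in Arom mice. Endothelial cells had at least 2 Pecam1 UMIs, Cdh5 and no Pdgfra. Shares were compared by exact permutation tests. To compare shares of cells with a UMI, each cell was thinned to 3000 UMIs, which left out 74 of the Myoc+ Hmcn2+, 286 of the other Pdgfra+ and 1573 of the endothelial cells. The study's own test over single cells was not used, since cells of 1 mouse are not replicates. The pipelines were tested on simulated data.

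Genes were named by rule: those of the selection rule and the 5 markers, the 12 largest called changes in each direction with a mean of at least 20 CPM in the higher genotype and no overlap, up to 6 called genes and the 3 of highest level in each list other than cell type marker lists, the 20 highest and 8 lowest against other Pdgfra+ cells, in the same direction in all 6 mice and with a mean of at least 50 CPM in the higher cells, and the 8 most significant differences in each direction. Esr1, Ly6a, Cd34, Dpp4, Scx and the called members of cell type marker lists were added after their values were seen. The alternatives were another scaling, no filter, looser and stricter Myoc limits, the study's cell limits, thinning, doublet removal, a replicate block and leaving out each mouse. Leaving out the 8% of barcodes with the highest Scrublet scores was chosen after seeing the data.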

Additional observations from a re-analysis of the deposited data

Results flagged for a closer look

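For 16 genes the effect of the genotype was set apart from the rest because it differed between Myoc+ Hmcn2+ cells and other Pdgfra+ cells of the same mice, by the interaction test in edgeR. The values below are the log2 fold change in Myoc+ Hmcn2+ cells minus that in the other cells.

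A higher value in Myoc+ Hmcn2+ cells was found for the lipoprotein gene Apoe (1.82), the adenosine receptor gene Adora2b (1.97), the transcription factor gene Cebpd (1.40), the complement gene C7 (2.26), Il6 (2.20), the matrix gene Efemp1 (2.37), AW112010 (2.29) and the proenkephalin gene Penk (1.86). A lower value was found for Hes6 (-2.23), Fxyd5 (-1.38), the matrix gene Smoc1 (-2.30), Msrb2 (-1.83), Moxd1 (-2.03), Crispld2 (-1.14), Ammecr1 (-1.84) and the activin subunit gene Inhba (-2.004). None of the 16, which were picked by their p in these same data, changed direction under any alternative that was run. In the other Pdgfra+ cells a change of cell mix and a change within cells cannot be told apart.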

How the results depend on the processing

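The share of Myoc+ Hmcn2+ cells kept its direction under each alternative that was run, with differences of -41.3 to -25.1 points of the Pdgfra+ cells and -6.16 to -1.62 points of all barcodes when 1 mouse was left out. Under the study's cell limits the first was -18.4 points, the smallest of all alternatives. With at least 4 Myoc UMIs the first was -31.3 points (exact permutation test, p = 0.1). The 525 genes called between genotypes became 1185 with a replicate block (558 higher, 627 lower), 21 under the study's cell limits, 100 after thinning, and 80 to 938 with 1 mouse left out, where Arom replicate 2 gave the fewest and Arom replicate 3 the most. DESeq2 called 769. The 1790 genes whose genotype effect differed between cell groups became 1130 with DESeq2, 465 after thinning, 928 against all other Pdgfra+ cells, 398 with a replicate block by cell group, and 934 to 1798 with 1 mouse left out. Thinning and the study's limits also left fewer genes to test (7724 and 8380 of 11693). The cause of the other shifts was not tested. Of the 67 called genes picked by the naming rule, 5 passed under the study's limits, 21 after thinning and 58 without the highest Scrublet scores. All 67 passed under DESeq2, another scaling, no filter, the block, the looser Myoc limit and the removal of marked doublets. Signs turned for Hes6 after thinning (-0.47), for Tppp3 with 1 mouse left out (-0.33 to 0.27), with 1 Myoc UMI (-0.038) and after thinning (-0.015), and for Smoc2 with 1 mouse left out (-0.078 to 0.11) and with 1 Myoc UMI (-0.070). In both, leaving out WT replicate 1 or Arom replicate 3 turned the sign. Same-numbered mice deviated together with correlations of 0.205, 0.059 and 0.270, and 5 of 6 mice correlated best with their own number. Per the study's methods, 1 WT mouse and 1 Arom littermate were processed on each of 3 dates, so litter and date pairs exist. The labels do not say that the replicate numbers mark them, so the fits without the block were kept as the main ones, and they leave this pairing out. With the block, 523 of the 525 genes called between genotypes still passed. Of the 1790 genes whose genotype effect differed, 392 still passed with the block by cell group. With 3 mice per genotype, single mice decide most calls, and p-values of shares cannot go below 0.1.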
